A study of Danio rerio with 6 samples.

Results

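The genes described here encode the machinery that fills synaptic vesicles with transmitter and releases it from nerve terminals. They were taken from a list of 50 zebrafish gene symbols. All 50 symbols were found in the gene table and led to 62 gene identifiers among 32520: 17 SNARE and fusion genes, 30 vesicle genes, 8 active zone genes and 7 transporter genes. For 13 symbols the zebrafish name itself identified the gene, 2 were found through a synonym, and 35 were found only under an upper-case symbol shared by related zebrafish copies. Those 35 symbols brought in 47 identifiers, and which of the copies was the listed one is not resolved here, so identifiers are given wherever copies differ.

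RNA was sequenced from heads of zebrafish embryos at 2 days post fertilization. The 6 libraries comprised 3 labelled slbp1-/- and 3 labelled wildtype, which were siblings of the mutants. The designation rw440 stands in the titles of both groups, and no other allele, treatment or transgene was named for either. The labels describe neither the lesion nor whether a library came from 1 head, a pool or a separate clutch, so each p-value below reflects the variation among these libraries alone, part or all of which may be technical.

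In a nerve terminal, vesicles loaded by proton-driven transporters dock at the active zone, a protein scaffold facing the synaptic cleft. Fusion is driven by SNARE proteins of vesicle and plasma membrane zippering together, held in check by complexins and triggered by calcium binding to synaptotagmins. NSF and its adaptors then pull the SNARE complexes apart, and clathrin, dynamin and their partners retrieve the membrane. Most of these genes are switched on as neurons leave the cell cycle and mature, whereas slbp encodes the stem-loop binding protein that processes histone mRNAs in dividing cells.

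Counts summed to between 3421961 and 5395071 per library. Expression is given as CPM, which are counts scaled to a common library size after TMM correction for differences in RNA composition, and fold changes are log2 values of mutant minus sibling with their standard error (SE). A gene was called where the p-value of edgeR's quasi-likelihood test, adjusted over all 15561 genes tested by the Benjamini-Hochberg method, was under 0.05. The gene that the mutant label refers to, slbp (ENSDARG00000100558), was at 180.4, 144 and 183 CPM in the mutants and at 98.1, 104 and 87.2 CPM in the siblings, a log2 fold change of 0.81 ± 0.16 (edgeR adjusted p = 0.00295). Its mRNA was therefore higher in every library labelled mutant, and with the lesion undescribed a count over the gene does not check the genotype. Among the mutants replicate 3 was set apart: the first principal component (69.4% of the variance) separated the groups, and the second (11.2%) placed it at -43.2 against 23.6 and 34.3. The head label was met by neuronal transcripts such as sncb, present at 75.3 CPM or more in every library, and by photoreceptor crx at 217 CPM or more in the siblings.

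Transcripts of the release machinery were lower in the mutant heads in all 4 role groups, whose median log2 fold changes lay between -1.53 and -1.43, and 1 complexin gene was far higher. Of the 62 genes, 51 had enough counts to be tested. Of these, 40 were lower, 1 was higher and 10 were not called by edgeR's quasi-likelihood test. Over all genes tested, 12.8% were called lower and 12.9% higher, together 25.7%. The members' median log2 fold change was -1.48, with the middle 50% from -1.58 to -1.12, beside a median of 0.00 over all genes. The CPM of the groups did not overlap for 45 members lower and 1 higher in mutants, against 21.8% of all tested genes in each direction. Of the 51 tested, 8 reached the minimum count only through the sibling libraries, so the tested members are not a neutral sample of the list. These are whole heads, in which fewer neurons and less RNA per neuron cannot be told apart.

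The deficit was not equal among the mutant libraries. Relative to the mean of the siblings, the median member lay at -1.23, -1.11 and -1.86 on the log2 scale in mutants 1, 2 and 3. The siblings lay at 0.34, -0.15 and -0.15. Mutant 3 was the lowest mutant for 40 of the 51 genes, and sibling 1 was the highest sibling for 45. For all 15561 genes tested these numbers were 5932 and 5951. The pattern was shared by the pan-neuronal genes described below, with 32 and 29 of 36. Without mutant 3, edgeR called 37 members lower, against 10.2% of all genes tested, and the members' median log2 fold change was -1.21. Without sibling 1 it called 33 lower, against 7.11% of all genes, and the median was -1.26.

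**Figure D1:**
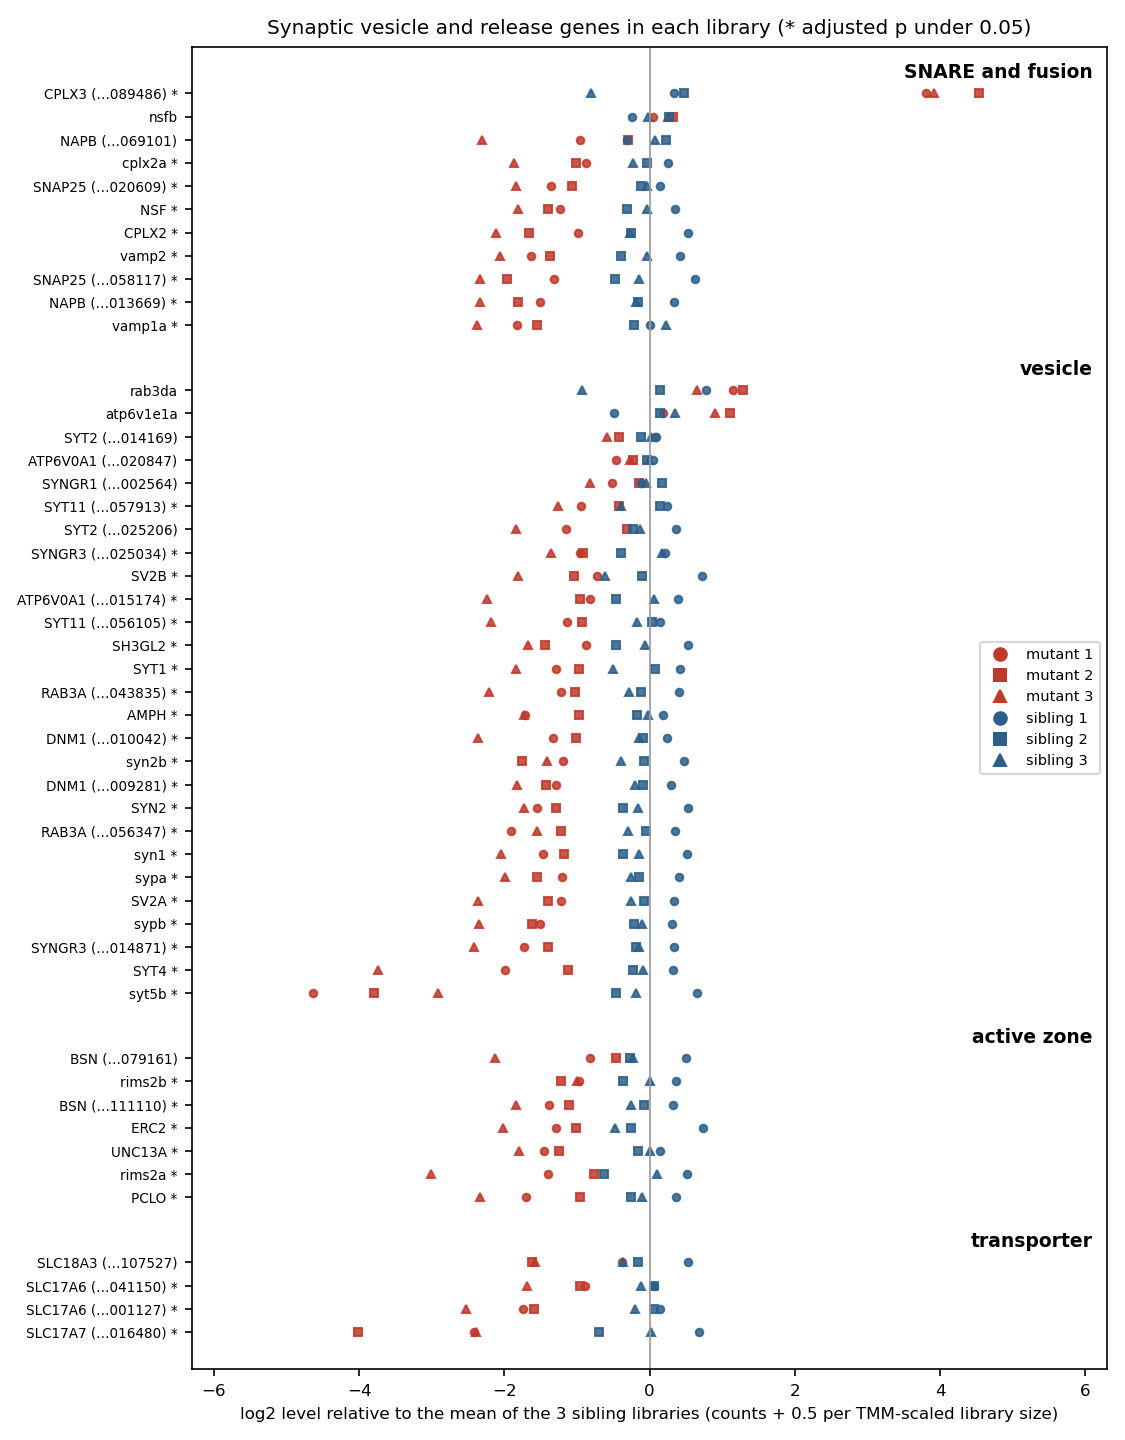
Level of the synaptic genes tested and reported here in each library, as the log2 value relative to the mean of the 3 sibling libraries, ordered within the role groups. Red symbols are mutants and blue symbols siblings. Nearly all red symbols lie left of the blue ones, those of mutant 3 mostly farthest, and the CPLX3 copy at the top lies about 4 log2 units to the right.

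Among the SNARE and fusion genes, 10 of 13 tested fell and 1 rose, and their median log2 fold change was -1.49. SNAP25 is the SNARE of the plasma membrane that pairs with syntaxin. Its copy ENSDARG00000020609 was at 55.8, 68.4 and 39.9 CPM in mutants and at 159, 132 and 141 CPM in siblings, a log2 fold change of -1.39 ± 0.19 (edgeR adjusted p = 0.000321). The second copy, ENSDARG00000058117, was at 25.9, 16.4 and 12.8 CPM against 99.9, 46.3 and 58.3 CPM, a log2 fold change of -1.88 ± 0.32 (edgeR adjusted p = 0.00193). For both copies every mutant lay well below every sibling. The vesicle SNARE vamp2, or synaptobrevin, fell by 1.70 ± 0.24 on the log2 scale, from 77.9, 44.4 and 57.1 CPM in siblings to 18.8, 22.4 and 13.9 CPM in mutants (edgeR adjusted p = 0.000352). Its relative vamp1a fell by 1.91 ± 0.30, so plasma membrane and vesicle SNAREs were lowered to a similar degree.

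Complexins bind the assembled SNARE complex, where they clamp and then promote fusion. CPLX2 (ENSDARG00000061918) fell by 1.56 ± 0.30 on the log2 scale, and cplx2a was at 57.0, 51.8 and 28.8 CPM in mutants against 125, 103 and 89.7 CPM in siblings, a fall of 1.2 ± 0.23 (edgeR adjusted p = 0.00296). CPLX3, known from mammals as a complexin of retinal ribbon synapses, went the other way. Its copy ENSDARG00000089486 was at 99.6, 164 and 107 CPM in mutants and at 8.80, 9.77 and 3.98 CPM in siblings, or 123 ± 35.3 against 7.52 ± 3.10 CPM (SD, n = 3 each). It was 16.6-fold higher in mutants, a log2 fold change of 4.05 ± 0.31 (edgeR adjusted p = 4.60e-06), and the lowest mutant lay far above the highest sibling. The other identifiers with this symbol, ENSDARG00000062508 and ENSDARG00000099196, had at most 10 counts in any library and were not tested. CPLX4 was near the floor as well: ENSDARG00000059486 had no count in any library, and ENSDARG00000059978 had 2, 4 and 3 counts in mutants and 24, 5 and 7 in siblings. A floor of 3 counts corresponded to 0.519 to 0.776 CPM, depending on the library.

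The recycling of SNAREs depends on the ATPase NSF and on its adaptors, the SNAPs. NSF (ENSDARG00000007654) was at 39.8, 35.4 and 26.4 CPM in mutants and at 119, 75.1 and 91.4 CPM in siblings, a log2 fold change of -1.49 ± 0.21 (edgeR adjusted p = 0.000342). Its paralog nsfb was not called: it was at 29.9, 36.3 and 34.5 CPM in mutants and at 24.3, 34.9 and 28.6 CPM in siblings, and its log2 fold change of 0.19 ± 0.20 (edgeR adjusted p = 0.509) became -0.06 when only total counts were used for scaling. The groups overlapped for nsfb and were wide apart for NSF. NAPB, or beta-SNAP, is such an adaptor. Copy ENSDARG00000013669 fell by 1.88 ± 0.29 on the log2 scale (edgeR adjusted p = 0.000632), whereas ENSDARG00000069101 gave -1.01 ± 0.41 (edgeR adjusted p = 0.0889, and 0.0323 without mutant 2) with overlapping groups.

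**Figure D2:**
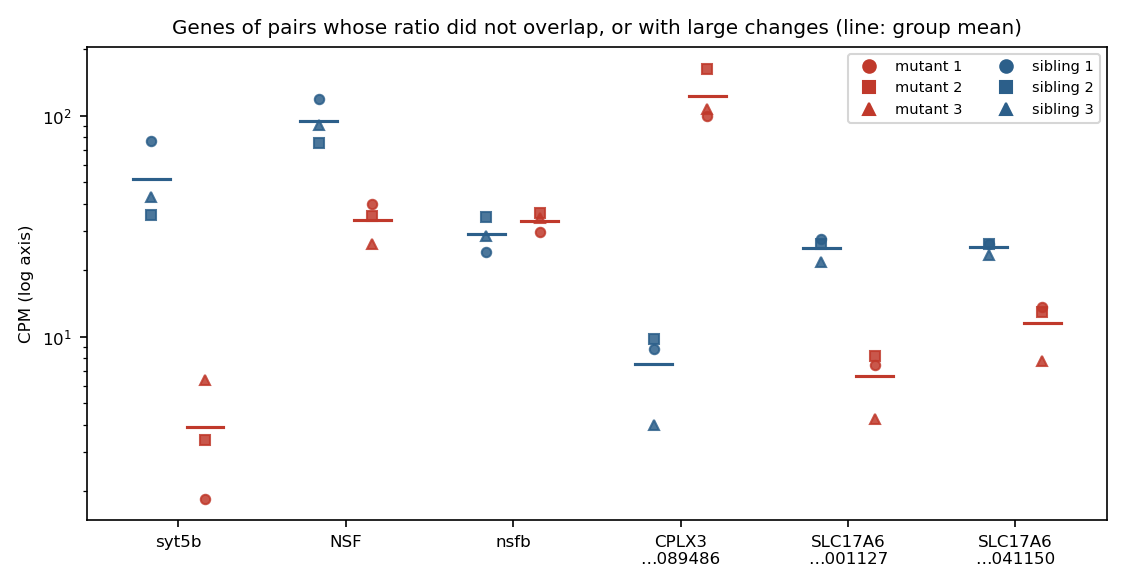
CPM per library, on 1 log axis, of 6 members with large changes or from pairs whose ratio did not overlap, mutants in red, siblings in blue and group means as lines. The values of syt5b lie 13.2-fold lower in mutants, CPLX3 lies 16.6-fold higher, and the values of nsfb overlap.

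Of the 27 vesicle genes tested, 21 fell and 6 were not called, and their median log2 fold change was -1.43. The synaptotagmins are calcium sensors and related vesicle proteins. SYT1, the main fast calcium sensor, was at 32.0, 39.9 and 21.7 CPM in mutants and at 105, 82.4 and 55.2 CPM in siblings, a log2 fold change of -1.37 ± 0.26 (edgeR adjusted p = 0.00269). The synaptotagmin syt5b was at 1.85, 3.42 and 6.38 CPM in mutants and at 76.8, 35.6 and 42.9 CPM in siblings, 13.2-fold lower and a log2 fold change of -3.72 ± 0.41 (edgeR adjusted p = 0.000135). Mutant 3, the lowest mutant for most members, was the highest mutant for syt5b. SYT4, a synaptotagmin that does not act as a fast sensor, fell by 1.96 ± 0.46, and SYT11 copy ENSDARG00000056105 fell by 1.34 ± 0.30.

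The smallest fall among the called members was that of the other SYT11 copy, ENSDARG00000057913, at 16.4, 23.7 and 13.2 CPM in mutants against 37.8, 35.4 and 24.2 CPM in siblings. Its log2 fold change of -0.86 ± 0.26 (edgeR adjusted p = 0.0267) was not called in each of 4 fits that left out a library. The edgeR adjusted p was then 0.08 without mutant 1, 0.0628 without mutant 3, 0.106 without sibling 1 and 0.0924 without sibling 2. Both SYT2 copies missed the threshold: ENSDARG00000014169 gave a log2 fold change of -0.30 ± 0.51 and ENSDARG00000025206 one of -0.99 ± 0.36 (edgeR adjusted p = 0.705 and 0.0578). Without mutant 2 the second copy was called (edgeR adjusted p = 0.0148). SYT1's sister gene syt1b had at most 7 counts in a library and was not tested.

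Transcripts for the main proteins of the vesicle membrane and surface fell together. Synaptophysin, the classical vesicle marker, is encoded by sypa, at 38.2, 30.1 and 22.2 CPM in mutants and at 118, 79.8 and 74.3 CPM in siblings, and by sypb. Their log2 fold changes were -1.58 ± 0.23 and -1.80 ± 0.24 (edgeR adjusted p = 0.000425 and 0.000249). The vesicle glycoprotein SV2A was at 26.2, 23.0 and 11.8 CPM in mutants and at 77.1, 57.9 and 51.2 CPM in siblings, a log2 fold change of -1.60 ± 0.27 (edgeR adjusted p = 0.00117). In these genes, too, no mutant library reached the lowest sibling. SV2B fell by 1.22 ± 0.36, a call that was lost without mutant 2, mutant 3 or sibling 1 (edgeR adjusted p = 0.0586, 0.0785 and 0.13), and SV2C had too few counts to be tested. The synapsins, which tether vesicles to each other in the reserve pool, fell by 1.57 ± 0.30 for syn1, 1.56 ± 0.26 for SYN2 and 1.49 ± 0.29 for syn2b.

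The synaptogyrins are relatives of synaptophysin. SYNGR3 copy ENSDARG00000014871 fell by 1.81 ± 0.28 on the log2 scale. Copy ENSDARG00000025034 was at 4.40, 4.56 and 3.31 CPM in mutants against 10.1, 6.64 and 9.87 CPM in siblings, a log2 fold change of -1.11 ± 0.34 (edgeR adjusted p = 0.0306). The call was lost with DESeq2 (adjusted p = 0.0683) and in edgeR fits without mutant 1, 2 or 3 or without sibling 1 or 3, where the adjusted p ran from 0.0522 to 0.103. SYNGR1 (ENSDARG00000002564) was not called, at 25.9, 33.5 and 21.0 CPM in mutants and 34.2, 42 and 35.8 CPM in siblings, a log2 fold change of -0.48 ± 0.21 (edgeR adjusted p = 0.109, and 0.0469 without mutant 2). The highest mutant lay just under the lowest sibling for that gene. The second SYNGR1 identifier, ENSDARG00000103577, had no count in any library.

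RAB3 proteins are GTPases that bring vesicles to the active zone, and the proton pump of the vesicle membrane, the V-ATPase, supplies the gradient for transmitter loading. Both RAB3A copies fell, by 1.43 ± 0.33 for ENSDARG00000043835 and 1.56 ± 0.29 for ENSDARG00000056347. The related rab3da was not called, at 9.73, 10.7 and 6.85 CPM in mutants against 7.5, 4.79 and 2.25 CPM in siblings (log2 fold change 0.94 ± 0.41, edgeR adjusted p = 0.11). ATP6V0A1 encodes the a1 subunit of the pump. Copy ENSDARG00000015174 fell by 1.26 ± 0.33 (edgeR adjusted p = 0.0157, and 0.0728 without sibling 1). Copy ENSDARG00000020847 was at 22.5, 26.5 and 25.5 CPM in mutants and 31.8, 30.2 and 30.6 CPM in siblings, and its log2 fold change of -0.32 ± 0.18 was not called (edgeR adjusted p = 0.228). The pump's E subunit copy atp6v1e1a gave 0.73 ± 0.33 with overlapping groups (edgeR adjusted p = 0.117).

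Genes of membrane retrieval on the list all fell. Amphiphysin (AMPH), which binds curved membrane and recruits dynamin, was at 16.4, 27.8 and 16.3 CPM in mutants and at 62.1, 48.5 and 53.8 CPM in siblings, a log2 fold change of -1.44 ± 0.23 (edgeR adjusted p = 0.000738). Dynamin 1, the GTPase that cuts vesicles free, fell by 1.52 ± 0.24 and 1.48 ± 0.29 for DNM1 copies ENSDARG00000009281 and ENSDARG00000010042. Endophilin A1 (SH3GL2), a partner of both, fell by 1.34 ± 0.30.

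Of the 7 active zone genes tested, 6 fell and 1 was not called, and their median log2 fold change was -1.48. Piccolo (PCLO), a giant scaffold protein, was at 8.11, 13.7 and 5.2 CPM in mutants and at 34.2, 22.3 and 24.8 CPM in siblings, a log2 fold change of -1.58 ± 0.32 (edgeR adjusted p = 0.00375). UNC13A, or Munc13-1, which primes vesicles by opening syntaxin, was at 5.10, 5.93 and 4.01 CPM against 15.8, 12.7 and 14.4 CPM, a log2 fold change of -1.5 ± 0.29 (edgeR adjusted p = 0.00241). The mutant values of both genes stayed below all sibling values. Bassoon (BSN), piccolo's partner, fell by 1.45 ± 0.34 for ENSDARG00000111110 (edgeR adjusted p = 0.00754). BSN copy ENSDARG00000079161, at 27.1, 34.7 and 10.9 CPM in mutants and 67.8, 39.8 and 41.0 CPM in siblings, was not called (log2 fold change -1.02 ± 0.37, edgeR adjusted p = 0.0709), although DESeq2 called it (adjusted p = 0.022), as did edgeR without mutant 2 (adjusted p = 0.0266).

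RIMS2 proteins link RAB3 to calcium channels and the priming factors. The gene rims2a was at 6.02, 9.35 and 1.89 CPM in mutants and at 23.0, 10.3 and 17.3 CPM in siblings, a log2 fold change of -1.53 ± 0.46 (edgeR adjusted p = 0.029). Its paralog rims2b was at 6.02, 5.02 and 5.90 CPM against 15.3, 9.22 and 11.9 CPM, a log2 fold change of -1.09 ± 0.30 (edgeR adjusted p = 0.0185). ERC2, a scaffold that binds RIMs, was at 7.18, 8.67 and 4.25 CPM in mutants and 29.5, 14.8 and 12.6 CPM in siblings, a log2 fold change of -1.48 ± 0.37 (edgeR adjusted p = 0.0113). For these 3 genes the groups did not overlap, but the calls rested on sibling 1: without it the edgeR adjusted p was 0.109 for rims2a, 0.0847 for rims2b and 0.0659 for ERC2. The rims2a call was also lost without mutant 1 or sibling 3 (edgeR adjusted p = 0.0729 and 0.0754), and that of rims2b without mutant 2 or sibling 3 (edgeR adjusted p = 0.0554 and 0.0525). The second Munc13 gene on the list, unc13ba, had at most 12 counts in a library and was not tested.

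Vesicular transporters define which transmitter a neuron releases. Of the 4 tested, 3 fell and 1 was not called, and their median log2 fold change was -1.53. Of these 4, 2 reached the minimum count only through the siblings, namely the SLC17A7 and SLC18A3 identifiers tested below. This favours falls in the count and the median. SLC17A6 is vesicular glutamate transporter 2, the main one of the embryonic brain. Copy ENSDARG00000001127 was at 7.41, 8.21 and 4.25 CPM in mutants and at 27.7, 26.2 and 21.8 CPM in siblings, a log2 fold change of -1.92 ± 0.28 (edgeR adjusted p = 0.000424). Copy ENSDARG00000041150 was at 13.7, 13.0 and 7.79 CPM against 26.4, 26.4 and 23.4 CPM, a log2 fold change of -1.14 ± 0.25 (edgeR adjusted p = 0.00585). For both copies every mutant lay below every sibling, for the first by the wider margin.

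Vesicular glutamate transporter 1, SLC17A7, is known from mammals as a transporter of photoreceptors and other retinal neurons as well as of the cortex. Its copy ENSDARG00000016480 was scarce, with 4, 1 and 4 counts in mutants and 34, 18 and 32 in siblings, a log2 fold change of -3.01 ± 0.61 (edgeR adjusted p = 0.00338). Copy ENSDARG00000090106 had at most 11 counts in a library and was not tested. The vesicular acetylcholine transporter SLC18A3 (ENSDARG00000107527) was at 3.94, 1.60 and 1.65 CPM in mutants and 7.5, 4.61 and 3.98 CPM in siblings, narrowly without overlap, and was not called (log2 fold change -1.13 ± 0.48, edgeR adjusted p = 0.102, and 0.0482 without mutant 1). Its other identifier, ENSDARG00000006356, and the monoamine transporter SLC18A2 had too few counts to be tested.

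Because the ratio of 2 related genes within a library does not depend on scaling, 10 pairs with enough counts were compared by that ratio. The groups did not overlap in 3 of them, 2 of which are given. The log2 ratio of NSF over nsfb was 0.41, -0.04 and -0.38 in mutants and 2.29, 1.1 and 1.68 in siblings. That of the SLC17A6 copies, ENSDARG00000001127 over ENSDARG00000041150, was -0.87, -0.66 and -0.86 against 0.07, -0.01 and -0.10. Both pairs gave p = 0.1 in a two-sided exact permutation test, the smallest that 3 against 3 libraries allow, and 0.333 after adjustment over the 10 pairs. In the other 7 pairs the groups overlapped, among them the SNAP25 copies, sypa and sypb, and SYN2 and syn2b, with differences in the log2 ratio of 0.45, 0.24 and -0.07.

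**Figure D3:**
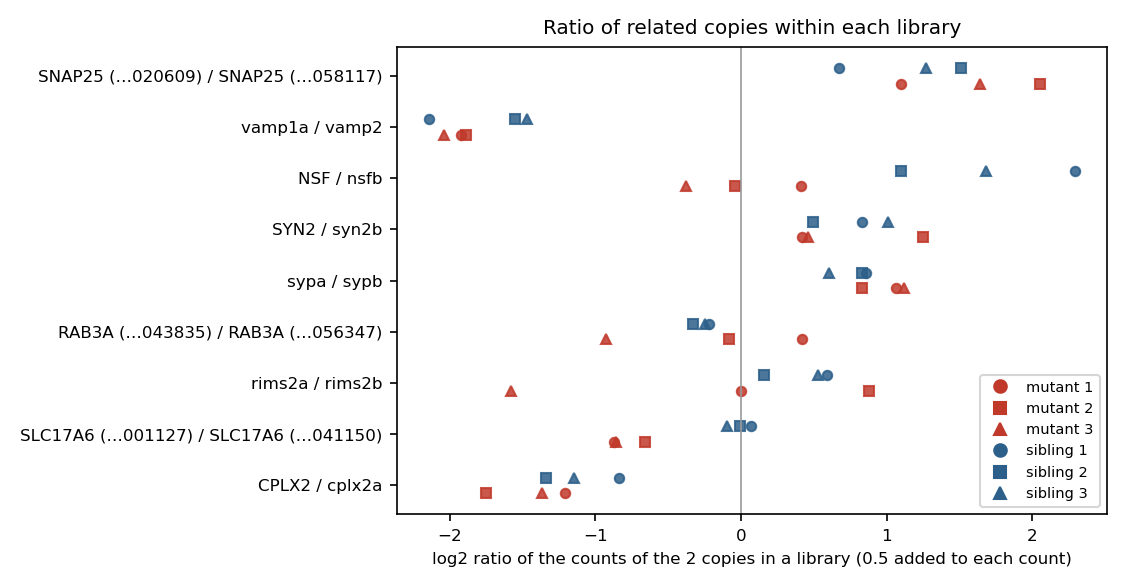
Log2 ratio between the genes of each pair within each library, with mutants in red and siblings in blue, for pairs with enough counts. The pair of NSF and nsfb and that of the SLC17A6 copies show groups that do not overlap, with differences of -1.69 and -0.78.

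The same test was read for other genes of the release pathway, of which 18 of 103 tested reached the minimum count only through the siblings. The test called 12.8% of all genes lower and 12.9% higher. Other genes of docking, priming and regulated exocytosis fell in 16 of 35 tested and rose in 1, and their median log2 fold change was -1.04. Among them the presynaptic protein prrt2 fell by 2.01 ± 0.26, the liprins PPFIA2 and PPFIA3, scaffolds that recruit vesicles and channels, fell by 1.90 ± 0.32 and 1.58 ± 0.22, and the priming factor cadpsb fell by 1.61 ± 0.23. STXBP6, or amisyn, was just past the threshold in the other direction at 0.49 ± 0.17 (edgeR adjusted p = 0.0486), and leaving out any 1 library ended its call (edgeR adjusted p = 0.0673 to 0.138). The call was also lost in other settings, such as scaling by total counts alone (edgeR adjusted p = 0.412) and DESeq2 (adjusted p = 0.112). Other vesicle proteins fell in 10 of 19 tested, with a median of -1.16. Of these 19, 7 reached the minimum count only through the siblings, the SYT9 copy given below among them. The vesicular GABA and glycine transporter SLC32A1 was at 25, 26.9 and 11.8 CPM in mutants against 96.3, 74.3 and 62.3 CPM in siblings, a log2 fold change of -1.86 ± 0.28 (edgeR adjusted p = 0.000564). The inhibitory transporter was thus lowered along with both copies of the excitatory SLC17A6. The GTPases RAB3C and rab3b and the SYT9 copy ENSDARG00000029239 had log2 fold changes of -1.43 ± 0.23, -1.96 ± 0.43 and -2.30 ± 0.45. The other SYT9 copy, ENSDARG00000003994, was not called (log2 fold change -0.76 ± 0.31, edgeR adjusted p = 0.0877).

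Endocytosis and the proton pump serve all cells as well as nerve terminals. Of 28 other endocytosis genes, 6 fell (21.4%) and 1 rose, and the median log2 fold change was -0.18. The shares over all genes tested were 12.8% lower and 12.9% higher. The clathrin adaptors SNAP91 (AP180) and snap91b fell by 1.48 ± 0.20 and 1.54 ± 0.24, PACSIN1 (syndapin 1, ENSDARG00000032865) by 1.87 ± 0.24 and BIN1 (amphiphysin 2, ENSDARG00000042114) by 1.55 ± 0.42. The more abundant PACSIN1 copy, ENSDARG00000042128, was not called, with means of 78.5 CPM in mutants and 82.1 CPM in siblings (log2 fold change -0.07 ± 0.15, edgeR adjusted p = 0.796). The BIN1 call was lost without mutant 1 or sibling 1 (edgeR adjusted p = 0.0599 and 0.0807). The endophilin gene sh3gl3b rose by 1.21 ± 0.38 (edgeR adjusted p = 0.0327). Leaving out mutant 3, sibling 1, sibling 2 or sibling 3 ended the sh3gl3b call (edgeR adjusted p = 0.168, 0.117, 0.0755 and 0.0568). So did scaling by total counts alone (edgeR adjusted p = 0.0899) and limma-voom (adjusted p = 0.0518). Of the 21 other V-ATPase genes, 9 fell (42.9%), with a median of -0.44. For the proton channel subunit ATP6V0C, copy ENSDARG00000036577 was at 78.5, 70.0 and 54.1 CPM in mutants against 302, 196 and 159 CPM in siblings, a log2 fold change of -1.70 ± 0.23 (edgeR adjusted p = 0.000342). The more abundant copy, ENSDARG00000057853, was not called, with means of 256 CPM in mutants and 261 CPM in siblings (log2 fold change -0.03 ± 0.16, edgeR adjusted p = 0.921). The accessory subunit gene atp6ap1a fell by 1.90 ± 0.31. ATP6V1B2 copy ENSDARG00000043465 and atp6v1e1b, subunits of the cytosolic part, fell by 0.99 ± 0.23 and 0.96 ± 0.15. The more abundant ATP6V1B2 copy, ENSDARG00000013443, was not called, with means of 118 CPM in mutants and 128 CPM in siblings (log2 fold change -0.12 ± 0.15, edgeR adjusted p = 0.585). Thus atp6v1e1b fell while its paralog on the member list, atp6v1e1a, was not called.

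Fusion genes that serve secretion in every cell, of the same biochemical family, changed less than the members. Of 36 constitutive trafficking genes tested, 3 fell (8.33%), 1 rose and 32 were not called. Over all genes tested, 12.8% fell and 12.9% rose. Their median log2 fold change was -0.17, and 28 of the 36 had a negative one. The sum of these genes was slightly lower in every mutant, at 746 to 806 CPM against 838 to 877 CPM in siblings. The endosomal syntaxin STX12 (ENSDARG00000044605) fell by 1.45 ± 0.30. The gene stxbp3, whose product serves exocytosis in many non-neuronal cells, rose by 1.06 ± 0.19 (edgeR adjusted p = 0.00155).

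**Figure D4:**
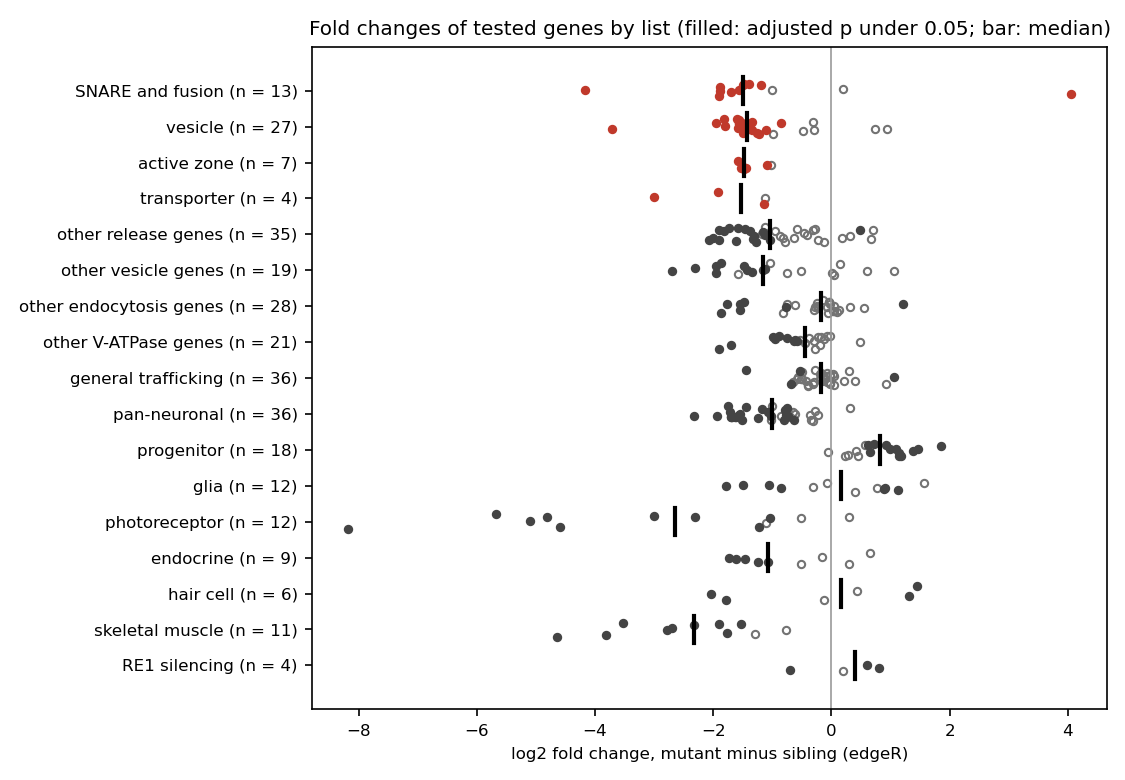
Log2 fold changes (mutant minus sibling) of the tested genes in the 4 role groups, the related pathway lists and the comparison lists, each point 1 gene, filled where called (red for the role groups), each bar a median. The role groups have medians between -1.53 and -1.43, the constitutive trafficking genes (general trafficking) one of -0.17 and the progenitor genes one of 0.82.

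Summed levels placed the members beside the other cell populations of the head. Without the CPLX3 copy, the members summed to 854, 941 and 573 CPM in mutants and 2580.2, 1832 and 1813 CPM in siblings, a ratio of 0.380. Pan-neuronal genes outside the release machinery, such as GNG3 and sncb with log2 fold changes of -1.70 ± 0.19 and -1.44 ± 0.16, were also lowered. Of 36 such genes tested, 23 fell (63.9%, against 12.8% of all genes tested), with a median of -1.01. Their sum ran from 2346 to 3800.3 CPM in mutants and from 5249 to 6757 CPM in siblings. Within each library the ratio of the members' sum to the separate pan-neuronal sum was 0.225, 0.267 and 0.244 in mutants and 0.382, 0.312 and 0.345 in siblings. Without the CPLX3 copy, the members were thus lower relative to these neuronal genes in all 3 mutants. The mean ratio was 0.708 times that in siblings, with no overlap. That copy was left out after it was called higher in these same data, which favours the separation. With it, the mutant to sibling ratio of sums was 0.438 for the members, against 0.541 for the pan-neuronal genes. With it, the groups all but met: the members summed to 1105 CPM beside 3527 pan-neuronal CPM in mutant 2. In sibling 2 they summed to 1841 CPM beside 5869.7 pan-neuronal CPM, nearly the same proportion. The same ratio did not overlap for the vesicle and transporter groups or for the SNARE group without the CPLX3 copy. With the CPLX3 copy, the mutant to sibling ratio of the SNARE sum was 0.492, against 0.541 for the pan-neuronal sum. Within libraries the groups then overlapped. Mutant 2 had a SNARE sum of 564 CPM beside 3527 pan-neuronal CPM, a larger proportion than 844 CPM beside 5869.7 CPM in sibling 2. For the active zone group mutants reached 0.0234 and siblings began at 0.0204. No p-value was computed for these sums. Against the constitutive trafficking genes the members' sum without the CPLX3 copy was 1.06, 1.26 and 0.736 in mutants and 2.94, 2.19 and 2.16 in siblings.

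**Figure D5:**
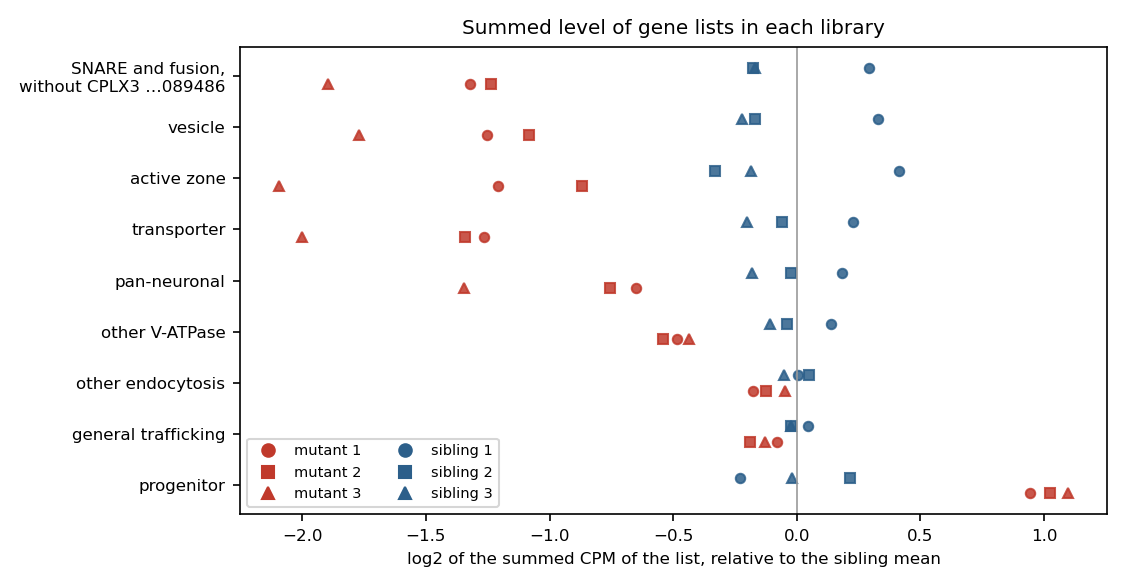
Summed CPM of the role groups and of 5 comparison and pathway lists in each library, as the log2 value relative to the sibling mean, with mutants in red and siblings in blue (general trafficking stands for the constitutive trafficking genes). The sums of the role groups (SNARE without the CPLX3 copy), the pan-neuronal list and the other V-ATPase genes lie lower in every mutant than in any sibling. So does the general trafficking sum, by a small margin (746 to 806 against 838 to 877 CPM). The other endocytosis sum overlaps between the groups, and the progenitor sum lies higher in every mutant.

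Markers of other cell types moved as well, and their part in the members' deficit was not tested. Shares called over all genes tested were 12.8% lower and 12.9% higher. Progenitor genes rose in 12 of 18 tested, with PCNA at 1.85 ± 0.23 and SOX3 at 1.46 ± 0.21, and their sum was 7483 to 8318 CPM in mutants against 3321 to 4515 CPM in siblings. Photoreceptor genes fell in 9 of 12 tested with a median log2 fold change of -2.65, among them crx (-4.81 ± 0.28) and six7 (-5.67 ± 0.34). Of these 12, 7 reached the minimum count only through the siblings, which favours falls in the count and the median. Their sum was 89.0 to 108 CPM in mutants and 809.9 to 1057 CPM in siblings, a ratio of 0.108. It stood beside the falls of syt5b and SLC17A7 and the 16.6-fold rise of the CPLX3 copy, and a link to these members was not tested. Of the defining markers, the cone opsins opn1mw1 and opn1lw1 had at most 6 counts in any library of either group. Glial genes fell in 4 and rose in 3 of 12 tested, with sums of 1132 to 1198 against 1293 to 1723 CPM, GLUL copy ENSDARG00000100003 at 0.89 ± 0.17 and SLC1A2 copy ENSDARG00000102453 at -1.78 ± 0.26. The difference in the glial sum depended heavily on this SLC1A2 copy, with means of 132 of 1170.1 CPM in mutants and 453 of 1496 CPM in siblings. The GLUL copy went the other way, with means of 443 and 239 CPM.

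Neuroendocrine genes, which include other regulated secretion cargo, fell in 5 of 9 tested, CPE by 1.61 ± 0.21 and SCG3 by 1.24 ± 0.15, with sums of 169 to 241 against 363 to 552 CPM. Beside this and the next counts, 12.8% of all genes tested were called lower and 12.9% higher. Hair cell genes fell in 2 and rose in 2 of 6 tested, with OTOF copy ENSDARG00000020581 at -2.03 ± 0.40 and MYO7A copy ENSDARG00000099871 at 1.45 ± 0.35 (edgeR adjusted p = 0.00969, and 0.0545 without mutant 2), and their sums overlapped at 51.2 to 142 and 76.1 to 90.9 CPM. Of these 6, 2 reached the minimum count only through the siblings, this OTOF copy among them, which favours falls. Skeletal muscle genes fell in 9 of 11 tested, atp2a1 by 3.81 ± 0.47 and ckmb by 3.52 ± 0.50, with sums of 40.1 to 86.2 against 180.2 to 324 CPM. Here 7 of the 11 reached the minimum count only through the siblings, which favours falls in the same way. The repressor REST, which silences many release genes outside neurons, was at 47.5, 57.0 and 59.0 CPM in mutants and 44.5, 45.9 and 51.6 CPM in siblings and was not called (log2 fold change 0.20 ± 0.17, edgeR adjusted p = 0.401). Of its cofactors, RCOR1 and RCOR2 rose by 0.60 ± 0.16 and 0.81 ± 0.17 and RCOR3 fell by 0.70 ± 0.20, REST and RCOR3 being named after their values were seen. The RCOR1 call was lost without mutant 1 or sibling 1 (edgeR adjusted p = 0.0774 and 0.0767) and with scaling by total counts alone (0.192). The 4 genes summed to 435 to 499 CPM in mutants against 275 to 337 CPM in siblings. RCOR2 made up most of this sum, with means of 306 of 459 CPM in mutants and 174 of 306 CPM in siblings. The ratio of the sums was 1.5, and 1.24 with total counts alone.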

How the data were processed

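The authors deposited whole-number counts per Ensembl gene, 1 column per library. HISAT2, featureCounts and the build GRCz11 are named in the submitters' processing notes without versions, while for the annotation release, strand setting and reads shared by near-identical copies the setting is not given in the sources, so counts of close paralogs are uncertain. Groups came from the genotype labels and titles. The members and gene lists were chosen with earlier results of these data known. Symbols were matched through a gene name table and RefSeq synonyms (29201 of 32520 genes had a symbol); 124 of 129 symbols of the wider pathway lists led to 117 genes. No sequence is shown, and some genes that enter the counts and sums are not reported here by name.

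In R 4.3.3, edgeR 4.0.16 kept 15561 genes by filterByExpr (minimum count 10, or 2.07 CPM), scaled by TMM (factors 0.788 to 1.14) and applied the quasi-likelihood test (robust, two-sided, group only). The same procedure was also run on counts simulated from the means and dispersions of this fit. 8047 genes had no count. The floor of 3 counts per library covers counting error only. Copy ratios used 0.5 added to each count and a mean count of at least 10 in both genes, with exact permutation tests (scipy 1.17.1). Alternatives were other size factors and filters, DESeq2 1.42.0, limma-voom (limma 3.58.1), a replicate block and leaving out each library.

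Values per library are given for the 4 members of each role group with the most counts, members called higher, uncalled members with a mean count of 100 or more, pairs whose ratio did not overlap, and the 3 largest and 3 smallest called changes. Pathway lists give up to 4 called genes by lowest p and each gene called higher, comparison lists up to 2. Values of other members, and of uncalled second copies in the pathway lists, are also printed and were chosen after they were seen.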

Additional observations from a re-analysis of the deposited data

How the results depend on the processing

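Of the 41 member calls, 34 were made in all 14 alternative settings, and member calls ranged from 34 without sibling replicate 1 to 46 with the replicate block. Leaving out 1 library at a time, 33 to 41 members were called lower with a median log2 fold change from -1.59 to -1.21, while genes called lower overall ranged from 1158 (without sibling replicate 1) to 1811, and copy ratios without overlap from 3 to 6. Groups separate more easily with 1 library fewer, so the range of the copy ratios does not measure their stability. With total counts alone as library sizes the median of all genes was -0.26, and this left 1095 genes called higher and 2787 lower (71.8% of calls lower, against 49.7%), brought the constitutive trafficking ratio of mutant to sibling sums from 0.913 to 0.759 and gave nsfb -0.06. Same-numbered mutant and sibling libraries deviated together with correlations of 0.24, 0.09 and 0.18, and no library correlated more with another number than with its own. The labels do not say whether same-numbered libraries were paired, so whether this pattern reflects the design is unknown. With the replicate block, 5059 genes (32.5%) were called, 2 members were called higher, the second being rab3da, and 6 copy ratios did not overlap. Leaving out the CPLX3 copy called higher, chosen after seeing the data, brought the ratio of the SNARE sum from 0.492 to 0.364. At this depth 11 members were too scarce to test.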
